A study of Arabidopsis thaliana with 3 samples.

Results

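The genes described are 44 nuclear loci of Arabidopsis that encode the small subunit of Rubisco (4 RBCS genes), the light-harvesting antenna proteins of photosystem II (14 LHCB genes) and photosystem I (6 LHCA genes), and subunits of photosystem I (10 PSA genes) and photosystem II (10 PSB genes). They were taken by locus, not by their values, from the transcript accessions in the array annotation. All 44 were represented, by 149 of the 43603 probes, against 25383 loci matched in all.

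The study compared whole seedlings, 7 days old, on 3 Agilent arrays with 2 colours each. On 2 arrays, fe-1 mutant RNA (labelled with Cy5) was set against wild type RNA of the accession L.er (Cy3), both untreated and sampled at ZT15, 15 h after lights on. On 1 array, seedlings of 35S::FE-GR line 5 submerged for 2 h in 1 µM dexamethasone (Dex, Cy5) were set against the mock treatment of that line (Cy3), both at ZT14. All plants grew in long days at 22 °C on medium with 1% sucrose. FE (AT1G79430) is a MYB-type transcription factor known for phloem development, and in 35S::FE-GR the viral 35S promoter drives FE fused to the glucocorticoid receptor domain in most cell types, so that Dex brings the protein into the nucleus. The labels name a single transgenic line and do not give its parent accession. Dyes were not swapped, so fe-1 and Dex samples were always read in Cy5.

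In chloroplasts, chlorophyll-binding LHCB and LHCA proteins collect light and pass the energy to photosystems II and I, whose cores combine subunits encoded in the plastid with subunits encoded in the nucleus. Rubisco fixes carbon dioxide; its large subunit is encoded in the plastid and its small subunit by the nuclear RBCS family. RBCS and LHCB messages are among the most abundant of green seedlings, and their families hold near-identical copies, so 1 probe can read several members.

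A log2 ratio is always Cy5 over Cy3 after loess within each array, so a positive value means more signal in fe-1 or with Dex, and each gene takes the value of the brightest of its kept probes. The fe-1 comparison was tested with limma, and a gene is called where its adjusted p is under 0.05. The Dex array has no replicate and no test, and there a gene is called where it differed by at least 1.5-fold. RNA of a whole seedling was measured, so fewer cells of a type and less RNA per cell cannot be told apart.

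All 5 green-tissue markers, all 44 genes and 19 of 20 root markers were well above background in every channel of the fe-1 arrays. FE itself was slightly lower in fe-1, at a log2 ratio of -0.17 ± 0.031 (SD, n = 2 arrays, limma adjusted p = 0.0432). The FE probe read -0.26 on the Dex array, and the phloem companion cell marker SUC2, a sucrose transporter, read 3.20, against -0.06 ± 0.15 in fe-1 (limma adjusted p = 0.511). Per array, 72.1% to 74.8% of gene spots were well above background in Cy5 and 75.1% to 78.1% in Cy3.

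In fe-1 seedlings 12 of the 44 genes were higher, 3 were lower and 29 were not called. Over all 20680 genes tested, 8.90% were called higher and 11.4% lower; among the 44 genes the shares were 27.3% and 6.82%. All 4 RBCS genes, 4 of 14 LHCB genes and 4 of 10 PSB genes made up the higher calls, while no LHCA or PSA gene was called higher. The changes were small. Log2 ratios ran from -0.27 to 0.56 with a median of 0.045, and over all genes the median was -0.0089. Of the 44 genes, 29 lay above 0, against 47.2% of all genes. These calls depended on the processing. With the signals as processed by the scanner software, none of the 44 genes was called. Then 16 of them, and 6455 of all genes, had an unadjusted limma p under 0.05. None was called either when 32 gene spots on replicate 1 whose local background was uneven, which belong to no member probe, were kept before background correction. In that setting 21 of the 44, and 2244 of all genes, had an unadjusted limma p under 0.05, and the median of the 44 was 0.19. With median centring in place of loess 31 were called higher and none lower. There 33 of the 44, and 5249 of all genes, had an unadjusted limma p under 0.05.

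**Figure D1:**
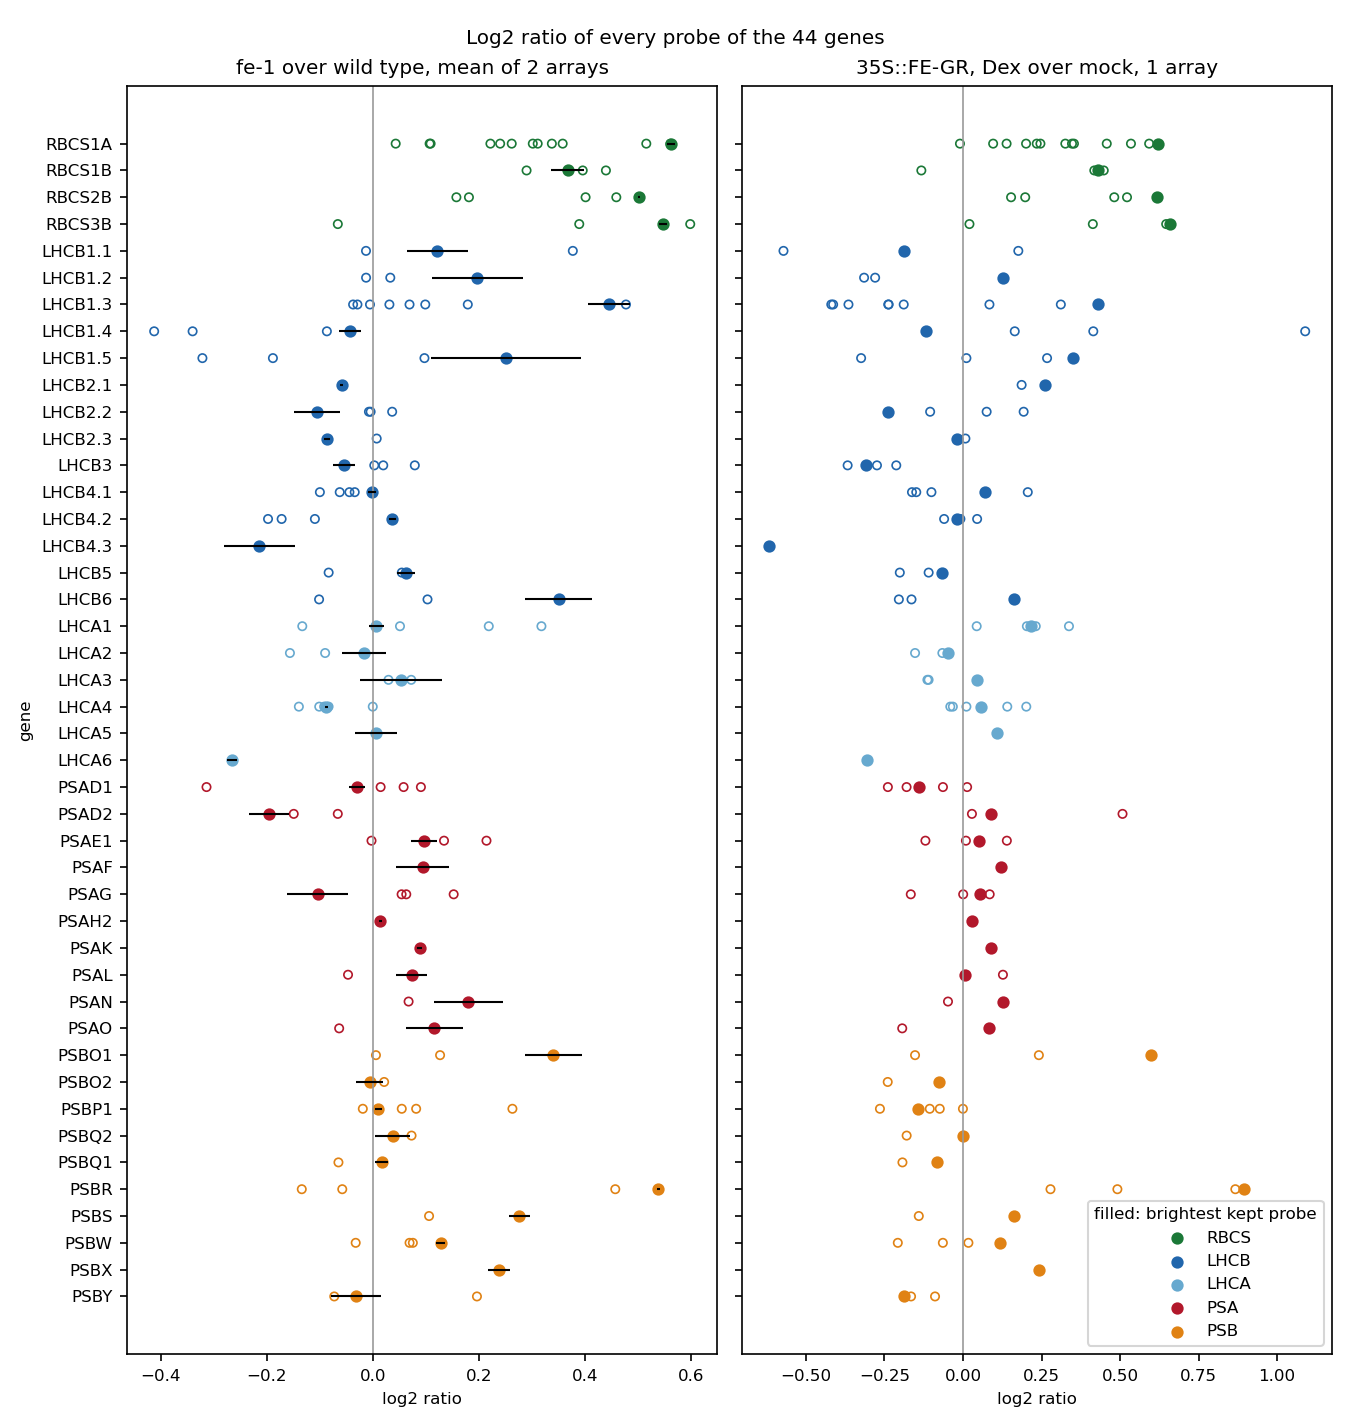
Log2 ratio of every probe (horizontal axis) of the 44 genes (vertical axis), for fe-1 over wild type (left, mean of 2 arrays) and Dex over mock (right, 1 array); filled points are the brightest kept probe, open points the other probes, colours the families, and black lines span both arrays for the filled probe. RBCS probes lie mostly to the right of 0 in both panels, whereas probes of most LHCB, LHCA, PSA and PSB genes spread around 0.

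RBCS genes encode the Rubisco small subunit and were the only family of which every gene was called higher. RBCS1A (AT1G67090) had log2 signals of 18.1 and 18.1 in the fe-1 samples and 17.5 and 17.5 in wild type. RBCS2B (AT5G38420) read 18.1 and 18.1 in fe-1 against 17.6 and 17.6 in wild type, and RBCS3B (AT5G38410) 18.059 and 17.996 against 17.503 and 17.456. For RBCS1B (AT5G38430) the samples read 17.8 and 17.8 against 17.5 and 17.4. In each of these genes both fe-1 samples lay above both wild type samples. RBCS1A was 1.48-fold higher, a log2 ratio of 0.56 ± 0.011 (SD, n = 2, limma adjusted p = 0.000386). RBCS3B rose by 0.55 ± 0.011 (limma adjusted p = 0.000432) and RBCS2B by 0.50 ± 0.0023 (limma adjusted p = 0.000674). RBCS1B, at 0.37 ± 0.044, rose least (limma adjusted p = 0.00283). The small subunit genes other than RBCS1A lie side by side on chromosome 5, with 0 protein-coding genes between them in the TAIR10.1 gene order.

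With Dex against mock, RBCS1A read 18.2 with Dex and 17.6 with mock, a log2 ratio of 0.62. RBCS2B read 0.62 and RBCS3B 0.66, and RBCS1B read 0.43, below the 1.5-fold threshold. By their brightest probes the 4 genes thus had the same sign in both comparisons, each of which held the mutant or induced sample in Cy5. Of the 26 RBCS probes 24 lay above 0 with Dex. The lowest, a dimmer probe of RBCS1B, read -0.13 with Dex against 0.29 in fe-1.

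The probes of an RBCS gene did not read alike. The 13 probes of RBCS1A ran from 0.043 to 0.56 in fe-1, with a median of 0.30, and 10 of them were called higher; their mean was also called, at 0.30 (limma adjusted p = 0.00712). RBCS2B had 5 probes from 0.16 to 0.50, of which 4 were called higher. RBCS1B had 4 of 4 probes called, at 0.29 to 0.44. RBCS3B had 3 called probes at 0.39 to 0.60 and 1 uncalled probe at -0.07. Over the family, 21 of 26 probes were called higher and 0 lower, against 8.84% higher and 10.3% lower over all 33476 probes. In the Dex comparison the same 26 probes ran in nearly the same order (Pearson r = 0.88, Spearman rho = 0.93 across probes, which share transcripts, dye orientation and brightness and are not independent).

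LHCB genes encode the major antenna of photosystem II (LHCB1, LHCB2 and LHCB3) and the minor antenna proteins that join it to the core (LHCB4, LHCB5 and LHCB6). LHCB1.3 (AT1G29930) had log2 signals of 17.2 and 17.1 in fe-1 and 16.7 and 16.7 in wild type. LHCB6 (AT1G15820) read 16.9 and 16.9 in fe-1 against 16.5 and 16.6. Both fe-1 samples exceeded both wild type samples in these genes. LHCB1.3 was 1.36-fold higher (log2 ratio 0.45 ± 0.055, SD, n = 2, limma adjusted p = 0.00136) and LHCB6 1.28-fold higher (0.35 ± 0.090, limma adjusted p = 0.00471). LHCB1.5 (AT2G34420) rose by 0.39 on replicate 1 and 0.11 on replicate 2, a mean of 0.25 ± 0.20 (limma adjusted p = 0.0432). LHCB1.2 (AT1G29910) rose by 0.28 and 0.11, a mean of 0.20 ± 0.12 (limma adjusted p = 0.0483). The last 2 calls lie close to the threshold. When all kept probes of a gene were averaged, none of these 4 calls held: LHCB1.3 read 0.14 (limma adjusted p = 0.0986), LHCB6 0.12 (limma adjusted p = 0.130), LHCB1.2 0.072 (limma adjusted p = 0.391) and LHCB1.5 -0.04 (limma adjusted p = 0.721). LHCB6 was called from 1 of 3 probes, and the others read -0.10 and 0.10.

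LHCB4.3 (AT2G40100), an isoform of a minor antenna protein, was the only LHCB gene called lower. It read 13.6 and 13.7 in fe-1 against 13.8 and 13.9 in wild type, a log2 ratio of -0.21 ± 0.094 (limma adjusted p = 0.0298), and is read by 1 probe. Its Dex value was -0.62, or 0.652-fold, with log2 signals of 13.03 in Dex and 13.64 in mock. It was the only gene of the 44 at least 1.5-fold lower there.

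The other 9 LHCB genes were not called. LHCB1.1 read 0.12 ± 0.082, LHCB5 0.062 ± 0.024, LHCB4.2 0.037 ± 0.0083 and LHCB4.1 -0.0015 ± 0.0097. LHCB1.4, LHCB2.1, LHCB2.2, LHCB2.3 and LHCB3 lay between -0.10 and -0.043. The median of the 14 genes was 0.018.

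Of 50 LHCB probes, 6 were called higher and 7 lower, shares of 12% and 14% that lie near the 8.84% and 10.3% of all probes. LHCB1.3 had 9 probes from -0.037 to 0.48, and only 2 of them were called. Its neighbours on chromosome 1, LHCB1.1 and LHCB1.2, had 1 called probe each, at 0.38 and 0.20. LHCB1.4 (AT2G34430), which lies beside LHCB1.5 on chromosome 2, was not called from its brightest probe at -0.043, yet 2 dimmer probes were lower at -0.41 and -0.34. The dimmer probe with -0.41 in fe-1 (-0.33 and -0.50 on the 2 arrays) read 1.09 on the Dex array, the highest Dex value of all member probes. LHCB1.5 had a called higher probe at 0.25 and called lower probes at -0.19 and -0.32, the only one of the 44 genes with called probes in both directions. LHCB4.2 had 2 called lower probes, at -0.20 and -0.17, and a brightest probe at 0.037.

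With Dex, 6 of 14 LHCB genes lay above 0, with a median of -0.020. LHCB1.3 read 0.43 from its brightest probe on that array, while its lowest probe read -0.42. LHCB3, a major antenna gene, read below 0 from all 4 probes, at -0.37 to -0.21, against -0.055 to 0.079 in fe-1. LHCB1.1 ran from -0.57 to 0.18 over its probes.

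LHCA genes encode the antenna of photosystem I, and LHCA5 and LHCA6 are known to link photosystem I to the NDH complex of cyclic electron flow. LHCA6 (AT1G19150) read 14.1 and 13.9 in fe-1 against 14.3 and 14.2 in wild type. It was the lowest of the 44 genes at -0.27 ± 0.014 (0.832-fold, limma adjusted p = 0.00927), rests on 1 probe, and read -0.31 on the Dex array. LHCA5 read 0.0066 ± 0.056. The 4 main antenna genes LHCA1 to LHCA4 lay between -0.087 and 0.053 and were not called. LHCA1 nevertheless had 2 dimmer probes called higher, at 0.22 and 0.32. The 6 probes of LHCA4 lay below 0 in fe-1, from -0.14 to -0.00013, and none was called.

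PSA genes encode the nuclear subunits of photosystem I. PSAD2 (AT1G03130), which with PSAD1 encodes the ferredoxin-docking subunit on the stromal side, read 14.3 and 14.1 in fe-1 against 14.5 and 14.2 in wild type. It was lower by the test, at -0.20 ± 0.054 (limma adjusted p = 0.0312), and read 0.09 on the Dex array. Averaged over its 3 probes it was -0.14 and no longer called (limma adjusted p = 0.0890). Within each array the fe-1 sample lay below its wild type sample, but fe-1 replicate 1 lay above wild type replicate 2. Its paralogue PSAD1 read -0.03 ± 0.022. PSAN, a lumenal subunit on the plastocyanin side, was the highest at 0.18 ± 0.092 and missed the threshold (limma adjusted p = 0.0518). The plastocyanin-docking subunit PSAF read 0.094 ± 0.071, the stromal subunit PSAE1 0.097 ± 0.034, and PSAK, PSAO, PSAL and PSAH2 between 0.014 and 0.12. PSAG, an antenna-anchoring subunit, read -0.10 ± 0.080. Of the 25 PSA probes 2 were called higher and 2 lower, shares of 8% each that lie near the 8.84% and 10.3% of all probes. By their brightest probes, all PSA genes on the Dex array lay between -0.14 and 0.13. Over all PSA probes the Dex values ran from -0.24 to 0.51, the highest from a dimmer probe of PSAD2.

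PSB genes encode nuclear subunits of photosystem II. PSBR (AT1G79040), a small subunit that helps hold the oxygen-evolving proteins, read 17.8 and 17.8 in fe-1 and 17.3 and 17.2 in wild type. PSBO1 (AT5G66570), the extrinsic protein that stabilises the manganese cluster, read 17.3 and 17.4 against 17.1 and 17.1. Both fe-1 samples were above both wild type samples in each. PSBR was 1.45-fold higher (log2 ratio 0.54 ± 0.0037, SD, n = 2, limma adjusted p = 0.000471) and PSBO1 1.27-fold higher (0.34 ± 0.076, limma adjusted p = 0.00476). PSBO1 was called from 1 of 3 probes, and the others read 0.13 and 0.0059; it read 0.16 with its probes averaged (limma adjusted p = 0.0578) and 0.13 without probes of mean log2 brightness 17 or more (limma adjusted p = 0.107). PSBR averaged over its probes was 0.20 (limma adjusted p = 0.0296). PSBS (AT1G44575), which is needed for the dissipation of excess light energy, rose by 0.28 ± 0.028 (limma adjusted p = 0.00826). The small membrane subunit PSBX (AT2G06520) rose by 0.24 ± 0.029 (limma adjusted p = 0.0144). PSBX rests on 1 probe, and PSBS was called from 1 of 2 probes, the other at 0.11.

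The paralogue PSBO2 was not called, at -0.0059 ± 0.036. PSBW, another small membrane subunit, read 0.13 ± 0.012 (limma adjusted p = 0.101), and the extrinsic subunit genes PSBP1, PSBQ1 and PSBQ2 lay between 0.010 and 0.038. PSBY read -0.031 ± 0.067. Of the 28 PSB probes 7 were called higher and 0 lower, shares of 25% and 0% beside 8.84% and 10.3% of all probes.

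PSBR was the member with the widest range among its probes, 0.67 on the log2 scale: its 4 probes read 0.54, 0.46, -0.06 and -0.13, from the brightest to the dimmest, and the first 2 were called. It had the highest Dex value by gene, 0.90 (1.86-fold; 18.1 with Dex and 17.2 with mock), and its 4 probes read 0.90, 0.87, 0.49 and 0.28 there. PSBR is also the member nearest to FE in the genome, with 36 protein-coding genes from one to the other in order along chromosome 1, where 18 of the 44 genes lie. The next nearest, PSBY and RBCS1A, lie 1219 and 1287 genes away.

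**Figure D2:**
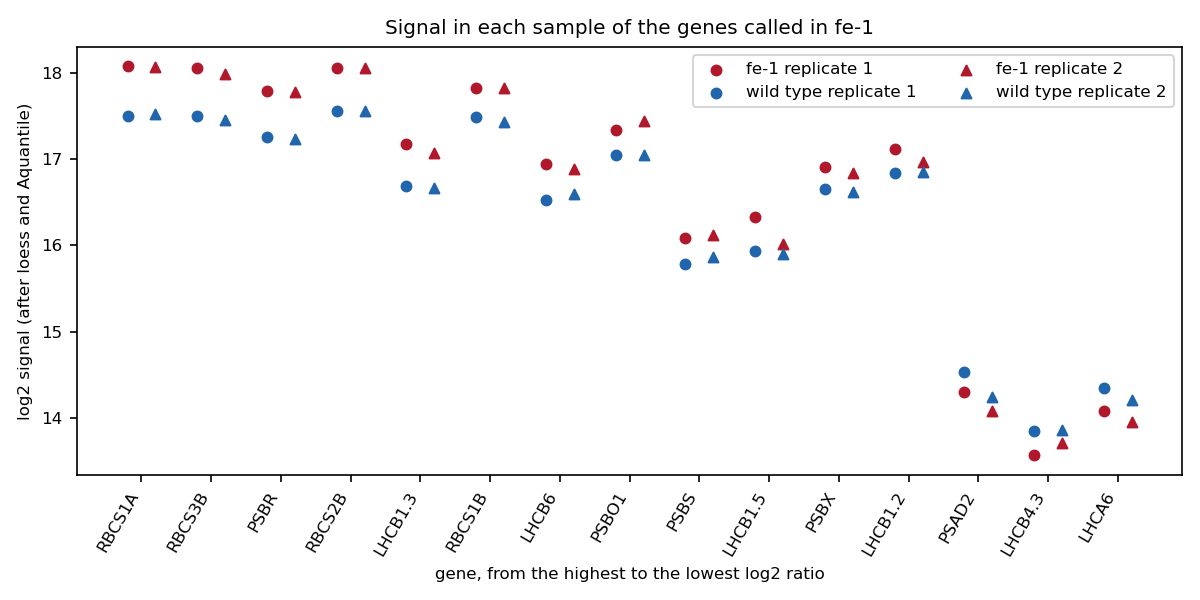
Log2 signal (vertical axis) of the 15 called genes in each sample of the fe-1 arrays, ordered from the highest to the lowest log2 ratio; circles are replicate 1, triangles replicate 2, red fe-1 and blue wild type. Red points lie above the blue points of their array in the 12 higher genes and below them in LHCA6, LHCB4.3 and PSAD2.

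On the Dex array 5 of the 44 genes were at least 1.5-fold higher (RBCS1A, RBCS2B, RBCS3B, PSBO1 and PSBR) and 1 lower (LHCB4.3), with 6.95% higher and 8.07% lower over all 20494 genes read. With the scanner's processed signals 1 gene was higher and 1 lower, and with median centring 20 were higher and 0 lower. The shares over all genes given here are those of the reported processing. Centring also raised the median of all genes on this array. The median of the 44 genes was 0.063 and that of all genes 0.0050, and 28 of 44 lay above 0 against 50.7% of all genes. Of the 149 member probes, 9 were at least 1.5-fold higher and 1 lower, against 6.09% and 7.05% of all probes. PSBO1 read 0.60 with Dex, 17.8 against 17.2 in mock. The 5 genes higher on this array were also called higher in fe-1, and LHCB4.3 was lower in both. All 5 were read from probes whose mean log2 signal of both channels was 17 or more in both comparisons. Of the other probes that bright, 88.6% were called higher in fe-1, and 32.7% were at least 1.5-fold higher with Dex. Most of these probes were not matched to a locus and may read transcripts of the 44 genes. Of those matched, 6 of 7 were called higher in fe-1, but only 1 of 18 was at least 1.5-fold higher with Dex.

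Across the 44 genes the fe-1 and Dex values were related with Pearson r = 0.85 and Spearman rho = 0.74, and across 148 probes with r = 0.56 and rho = 0.49. Across all 32183 probes read in both comparisons r was 0.029 and rho 0.10. These are descriptions: the points are probes of related transcripts with the same dye orientation on every array. Among the 86 member probes of mean log2 brightness under 16 in both comparisons, r was -0.12 and rho -0.050.

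**Figure D3:**
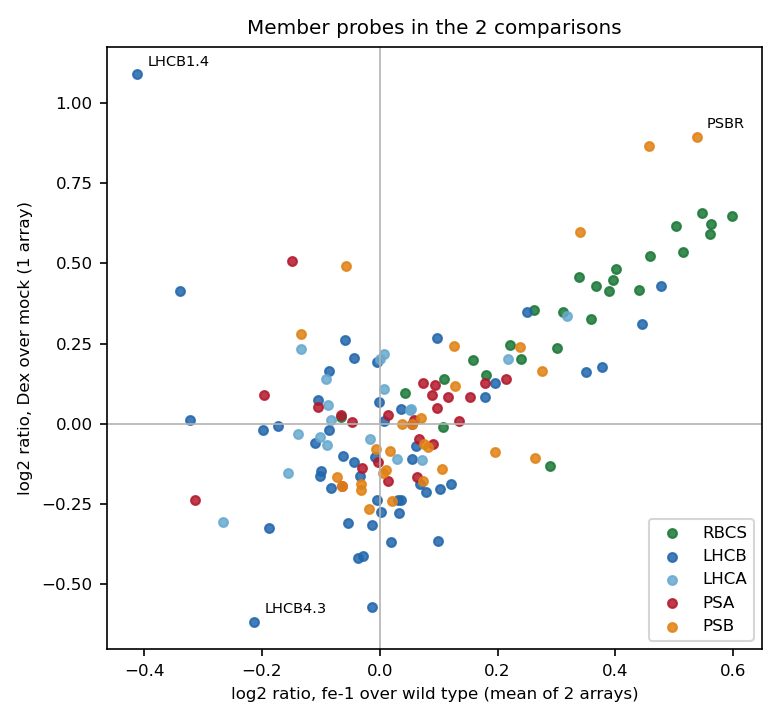
Log2 ratio of 148 member probes in fe-1 over wild type (horizontal axis, mean of 2 arrays) and in Dex over mock (vertical axis, 1 array), coloured by family. RBCS probes and the brightest PSBR and PSBO1 probes extend to the upper right, 1 probe of LHCB1.4 lies at the upper left (-0.41 and 1.09), and LHCB4.3 lies at the lower left.

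The spread among probes of a gene exceeded the spread between arrays. The SD between the 2 fe-1 arrays had a median of 0.042 over member probes and 0.054 over all probes. Among the 36 genes with over 1 tested probe, the SD among the probes of a gene had a median of 0.11 and their range a median of 0.19. All tested probes lay above 0 in 8 of these genes, below 0 in 5, and on both sides of 0 in 23. A called probe stood beside a probe of the opposite sign in 13 genes. The 2 arrays gave the same sign for 119 of 148 member probes (r = 0.91, rho = 0.88 across probes), and 7 of the 44 genes had opposite signs. In the 29 genes not called, the half-width of the 95% interval of the log2 ratio was 0.11 to 0.13. Those intervals are not adjusted for the number of genes, and ratios as large as 0.18 (PSAN) were not called.

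Within the 44 genes, the log2 ratio followed the brightness of the probe (r = 0.56, rho = 0.64 over 148 probes in fe-1; r = 0.38, rho = 0.53 on the Dex array). Brightness is the mean of the log2 signals of both channels, and the bands below were chosen after the values were seen. In fe-1, 28 member probes had a brightness of 17 or more: 24 were called higher and their median was 0.36. Of them 24 belong to RBCS, 2 to PSBR and 1 each to PSBO1 and PSBW. The 35 other probes of that brightness read much the same, with 31 called higher (88.6%) and a median of 0.37. Just below, at 16 to 17, the 28 member probes had a median of 0.095 with 7 called higher, and the 73 other probes a median of 0.15 with 31 called higher (42.5%). At 14 to 16 the medians were -0.0054 for 49 member probes and 0.013 for 619 others.

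Only 7 of the 35 other bright probes were matched to a locus, and the 28 unmatched probes may read transcripts of the 44 genes. Of the 7, 6 were higher: the probes of THI1 (0.44), GRP7 (0.41), DRT112, the plastocyanin gene PETE2 (0.56), FBA2 (0.44), ESP (0.40) and AT1G07590 (0.46). PYK10, at -0.15, was not called. On the Dex array, 35 member probes of brightness 17 or more had a median of 0.35, and 52 other probes a median of 0.51, or 0.26 for the 18 of them matched to a locus. With the scanner's processed signals the medians in fe-1 at 17 or more were 0.18 for members and 0.18 for the others. The part of brightness in the RBCS, PSBR and PSBO1 values was not tested.

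**Figure D4:**
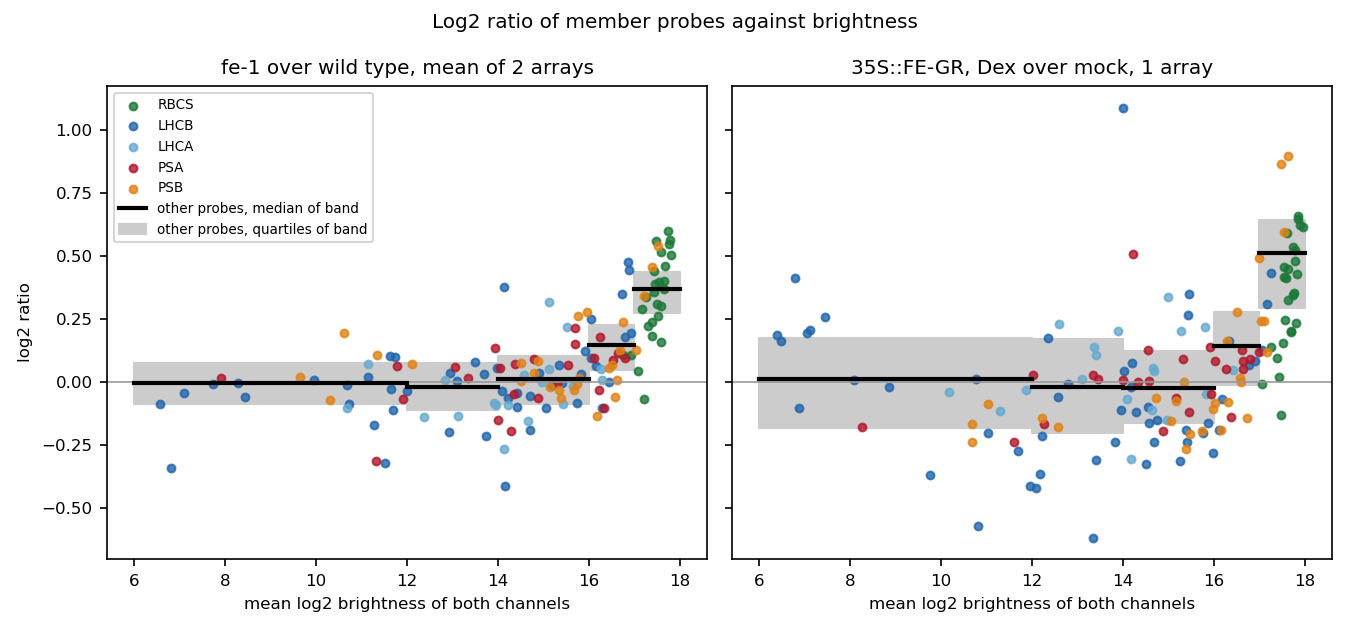
Log2 ratio (vertical axis) of member probes against mean log2 brightness of both channels (horizontal axis) for fe-1 (left, mean of 2 arrays) and Dex (right, 1 array), coloured by family; black lines and grey bands are the median and quartiles of all other probes in each brightness band. The medians of members and of other probes lie near 0 below a brightness of 16, and both lie above 0 at 17 or more. Single member probes below 16 lie far from 0, such as the LHCB1.4 probe at -0.41 in fe-1 and 1.09 with Dex.

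With the probes of brightness 17 or more left out, an alternative chosen after seeing the data, 41 of the 44 genes could be read, 6 were called higher and 3 lower, and the median was 0.017. RBCS1A was then the only RBCS gene left, at 0.11 (limma adjusted p = 0.149), and PSBR turned to -0.06. The calls of LHCB1.2, LHCB1.3, LHCB1.5, LHCB6, PSBS and PSBX and the 3 lower calls do not rest on probes of that brightness. The called probes of LHCB1.2, LHCB1.3, LHCB1.5, LHCB6 and PSBX nevertheless had a brightness of 16.1 to 16.9. At 16 to 17, 42.5% of the other probes were called higher as well. The part of brightness in these calls was not tested. On the Dex array 0 of the 4 RBCS genes and 9 of the 10 PSB genes could then be read. Of the Dex values left, 0 reached 1.5-fold higher, a count that RBCS genes could not enter.

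Across all the settings tried, the RBCS genes that could be read lay above 0, while their call did not always hold. With the scanner's processed signals their log2 ratios were 0.14 to 0.34 (lowest limma adjusted p = 0.0638). LHCB1.3 read 0.29 (limma adjusted p = 0.0765) and PSBR 0.37 (limma adjusted p = 0.0608) with those signals. Median centring raised the RBCS genes to 0.78 to 0.98, and it left LHCA6, LHCB4.3 and PSAD2 at -0.10, -0.079 and -0.023, uncalled. Averaging all kept probes left 7 genes higher, of which 4 were RBCS and 3 PSB (PSBR, PSBS and PSBX). It gave 3 lower genes, though not the same ones. LHCA6 and LHCB4.3 stayed and PSAD2 was lost, while LHCB1.4 was newly called at -0.22 (limma adjusted p = 0.0246). LHCA6, LHCB4.3 and PSBX have 1 probe each, so averaging could not change their values.

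**Figure D5:**
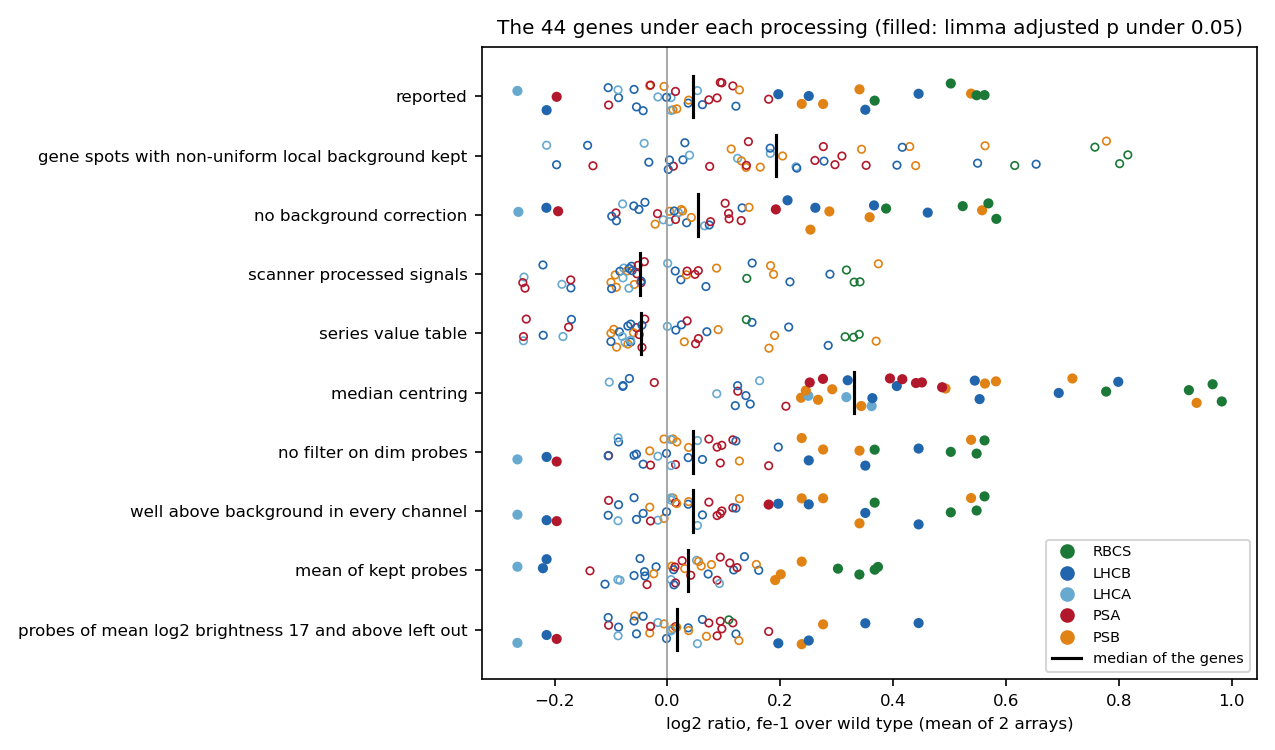
Log2 ratio in fe-1 (horizontal axis, mean of 2 arrays) of the 44 genes under each processing (vertical axis), with filled points for a limma adjusted p under 0.05, colours for the families and a black line for the median of the genes. Medians run from -0.049 with the scanner's processed signals to 0.33 with median centring; with 41 genes read when probes of brightness 17 or more are left out, the RBCS points are all but absent.

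Other nuclear photosynthesis genes, in lists that are no part of the 44, gave 14 higher and 9 lower of 105 genes tested, with a median of -0.0088 (35 higher and 3 lower with median centring, and 0 called with the scanner's processed signals). These are shares of 13.3% and 8.57%, beside 8.90% and 11.4% of all genes, and the single lists below hold 10 to 24 genes each. Of 18 electron transport genes 4 were higher and 0 lower, with a median of 0.072: the plastocyanin gene PETE2 at 0.56 ± 0.037 (limma adjusted p = 0.000423), the cytochrome complex subunit gene PETM at 0.25 ± 0.031, the cyclic electron flow gene PGRL1A at 0.25 ± 0.035 and the ferredoxin reductase gene FNR2 at 0.20 ± 0.0038. Of 18 carbon fixation genes 3 were higher and 1 lower, with a median of 0.068. FBA2, an aldolase, rose by 0.44 ± 0.11, the carbonic anhydrase CA2 by 0.36 ± 0.019 and the regulator CP12-1 by 0.32 ± 0.17, while phosphoribulokinase (PRK) was lower at -0.18 ± 0.026. Chlorophyll synthesis genes, with a median of -0.018, gave 0 higher and 2 lower of 20, CRD1 at -0.19 ± 0.029 and GUN5 at -0.17 ± 0.064. Of 10 photorespiration genes none was called, and their median was -0.033. The 15 genes of antenna assembly and light-harvesting relatives had a median of -0.086, with 2 higher and 4 lower. Among the lower were ELIP1, an early light-induced protein, at -0.30 ± 0.096 and cpSRP43, which carries antenna proteins to the thylakoid, at -0.23 ± 0.018. None of 11 plastid-encoded photosynthesis genes was matched to a probe, so the partner subunits made in the plastid were not analysed here.

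Of 24 regulators of photosynthesis genes tested, 5 were higher and 2 lower (20.8% and 8.33%), with a median of -0.033. GLK1 and GLK2, transcription factors that activate LHC genes, rose by 0.23 ± 0.14 (limma adjusted p = 0.0354) and 0.20 ± 0.099 (limma adjusted p = 0.0379). The GATA factors GNC and CGA1 rose by 0.26 ± 0.073 (limma adjusted p = 0.0134) and 0.23 ± 0.046 (limma adjusted p = 0.0182). HY5, a bZIP factor of light signalling, was lower at -0.25 ± 0.074 (limma adjusted p = 0.0148), and the phytochrome-interacting factor PIF3 was not called at -0.025 ± 0.016. In the Dex comparison GLK1 read -0.0029, GLK2 0.17, CGA1 0.13, HY5 -0.084, GNC -0.62 and PIF3 0.70.

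Markers of other tissues moved in fe-1 as well. Of 20 root markers 12 were lower and 2 higher, with a median of -0.21, led by the root hair genes COBL9 (-1.30 ± 0.069), RHS19 (-1.25 ± 0.16), EXPA7 (-1.05 ± 0.10) and PRP3 (-0.95 ± 0.15). Their summed signal, in units of 1000 intensity units, was 10.77 and 10.01 in fe-1 and 13.04 and 12.56 in wild type, and 8.61 with Dex against 9.94 with mock. Of 7 seed storage genes read, 5 were lower in fe-1, with a median of -0.70 and a summed signal of 1.45 and 0.710 against 3.37 and 2.31 in the same units. Only 4 of the 7 were well above background in every channel of the fe-1 arrays. Probes seen in 2 of 4 channels passed the filter, so a gene seen in wild type alone could enter as lower in fe-1. Over all genes 8.90% were called higher and 11.4% lower. The 5 green-tissue markers, which include RBCS1A, summed to 596 and 609 in fe-1 against 494 and 490, and to 778 with Dex against 618. Only RBCS1A among them, itself one of the 44 genes, was called higher in fe-1 (0.56). PRK was called lower (-0.18), and RCA (0.085), GAPB (0.11) and CA1 (0.14) were not called. The 44 genes together summed to 3915 and 3772 in fe-1 against 3310 and 3224, and to 4313 against 3595 on the Dex array. The part of tissue make-up in the values of the 44 genes was not tested.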

How the data were processed

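Whole-seedling RNA was measured on 3 two-colour arrays: fe-1 over wild type (2 arrays, called biological replicates by the labels) and Dex over mock (1 array). Groups were read from sample titles. Per the labels' protocols, 0.1 µg of total RNA was labelled per sample. The deposited scanner files hold median spot and local background intensity per channel, with no normalization; per the file headers they came from version 10.7.3.1 of Agilent Feature Extraction (10.7 in the submitters' processing notes). They also hold background-subtracted, dye-normalized signals with a log10 ratio per spot, deposited as the scanner software wrote it, per the file headers. Log2 ratios in the authors' deposited series table differ from these by at most 0.005, with a median of 0 on each array, which settles their scale, centring and direction. Both were used only as alternatives.

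The 44 loci and all other lists were chosen with earlier results of these data known. On fe-1 replicate 1, 32 gene spots with a non-uniform local background were left out before background correction; in all, 8 to 43 of 43803 gene spots per array were left out, none from the 44 genes, and 0 were saturated. Background was corrected with normexp (offset 50) and ratios with loess within arrays, with control and outlier spots at weight 0, in limma 3.58.1 under R 4.3.3. Spots of a probe were averaged. Probes needed a signal well above background in 2 or more of 4 channels (fe-1) or 1 or more of 2 (Dex), which 148 and 149 of the 149 member probes had. A RefSeq gene table (TAIR10.1) named 34285 probes by accession and left 9318 unnamed; it served for names and gene order only, since the arrays were annotated on an older build.

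The fe-1 log2 ratios were tested against 0 with lmFit and eBayes (1 residual and 6.54 prior degrees of freedom for genes, 9.78 for probes), with Benjamini-Hochberg adjustment over all genes or all probes; the script was tested on simulated data. The p-values measure the spread between these 2 arrays only, and the number of arrays limits the precision. Signals per sample are loess values after Aquantile scaling (fe-1). All 44 genes could be named; of other lists, up to 4 called genes with the largest log2 ratio, plus GLK1, GLK2, HY5, GNC, CGA1, PIF3 and FE. Bright probes and markers outside these were named after their values were seen. The alternatives were 2 background corrections, the 2 deposited ratios, median centring, 2 filters, the mean of probes, each array left out, and bright probes left out (added after seeing the data).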

Additional observations from a re-analysis of the deposited data

How the results depend on the processing

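The counts of calls in fe-1 rested on the processing. With the spots of non-uniform background kept, with the scanner's processed signals and with the series value table, limma called 0 member genes higher and 0 lower (12 and 3 as reported), 0 member probes in either direction (38 and 10) and 0 of the other photosynthesis genes (14 and 9), although 21, 16 and 15 member genes had an unadjusted p under 0.05, as did 2244, 6455 and 6033 of all genes. Median centring gave 31 higher and 0 lower genes, 80 and 4 probes, and 35 and 3 other photosynthesis genes. The mean of kept probes gave 7 higher genes, and without probes of brightness 17 or more there were 6 higher genes and 14 higher probes. No background correction kept all 15 gene calls, the filter on every channel kept 15 and no filter kept 14. The cause was not tested. The median of the member genes (0.045) and probes (0.040) became 0.193 and 0.128 with the spots kept, -0.049 and -0.0096 with scanner signals, -0.0475 and -0.01 with the value table, 0.332 and 0.248 with centring, and 0.017 and 0.0069 without the brightest probes. Leaving out each array in turn gave medians of 0.044 to 0.057 for genes and 0.014 to 0.066 for probes. On the Dex array the count at least 1.5-fold higher (5) became 1 with scanner signals, the value table and the mean of probes, 20 with centring and 0 without the brightest probes. In the last of these settings no RBCS gene could be read on that array. The count lower (1) became 0 with centring. The Dex median (0.063) became -0.043, -0.045, -0.0066, 0.55 and 0.017 in that order; centring moved the median of all genes there from 0.0050 to 0.22.

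Reversals among called genes were those of LHCB1.5 with the mean of kept probes (-0.040) and PSBR without probes of brightness 17 or more (-0.058). The other reversals were of genes not called. With the spots kept they were LHCA5 (-0.041), PSAG (0.075), PSBY (0.11), LHCB2.2 (0.0037), LHCB1.4 (0.028), LHCA4 (0.039), PSBO2 (0.14), LHCA2 (0.12), PSAD1 (0.14), LHCB4.1 (0.18) and LHCB3 (0.031). Without background correction they were PSBO2 (0.0040) and LHCB4.1 (0.012). Scanner signals reversed PSBP1 (-0.0999), PSAO (-0.047), PSAK (-0.041), PSAF (-0.054), LHCA3 (-0.077), PSBW (-0.059), LHCA1 (-0.068), LHCB5 (-0.067), PSBQ1 (-0.091) and PSAE1 (-0.052), and the value table gave the same genes -0.10, -0.045, -0.040, -0.055, -0.075, -0.060, -0.065, -0.070, -0.090 and -0.050 in that order. Median centring reversed PSAG (0.21), PSBY (0.24), LHCB2.2 (0.12), LHCB1.4 (0.14), LHCA4 (0.16), PSBO2 (0.27), LHCA2 (0.25), PSAD1 (0.28), LHCB4.1 (0.32) and LHCB3 (0.15). The mean of kept probes reversed PSAG (0.041), PSBY (0.031), LHCB4.2 (-0.11), PSBO2 (0.0077), PSBQ1 (-0.024) and LHCB3 (0.012). Each fe-1 ratio is already a difference within an array, which the reported test uses. No further pairing across the fe-1 and Dex groups was possible, since they compare different plants and treatments. They also share fewer than 2 replicate numbers, and a shared number would not pair their samples. With 2 fe-1 arrays and 1 Dex array, all of one dye orientation, dye and comparison cannot be told apart.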
